A study of Homo sapiens with 12 samples.

Results

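Genes that encode the machinery of mRNA decay were followed in 2 human ovarian cancer cell lines, KURAMOCHI (Ku) and COV362 (Cov), treated with THZ1, a covalent inhibitor of the transcriptional kinases CDK7, CDK12 and CDK13. The set held 42 genes, taken by exact symbol from the 23713 rows of each expression table, and its members fall into 8 roles: the CCR4-NOT deadenylase, the other deadenylases, the 5′-3′ exonucleases, the decapping enzyme and its enhancers, the LSM ring, the exosome core, the exosome nucleases and nonsense-mediated decay. All 42 were present in both tables, and all 42 were active, which means that they exceeded 1 FPKM, a count of fragments scaled to transcript length and library size, in 1 or more of the 12 libraries. By the same rule 14251 genes in all were active, members included. Untransduced Ku cells, kept in RPMI, and untransduced Cov cells, kept in DMEM, were exposed for 6 hr to DMSO alone, to 50 nM THZ1 or to 250 nM THZ1, each condition in biological duplicate, and polyA RNA was sequenced. Each line is a single established culture, so p-values measure the spread between duplicates of that line and not between tumours. In Ku the second DMSO library read lower than the first, by a median of 0.178 on the log2 scale over the members and 0.162 over the active genes. Both lines carried the markers KRT8, KRT18 and PAX8 in DMSO libraries. The epithelial markers KRT7 and EPCAM were low in Ku (DMSO means of 4.61 and 4.13 FPKM) and high in Cov (1355 and 162 FPKM). WT1 was below 1 FPKM in Cov and MUC16 was below 1 FPKM in Ku. The leukocyte and stromal markers PTPRC, CD3E, DCN and LUM, with the endothelial PECAM1, were below 1 FPKM in both. Of the same lists, DMSO means above 1 FPKM were found for CD68 (2.31 in Ku and 4.12 in Cov), COL1A1 (2.53 and 3.17) and CDH5 (8.23 and 7.75) in both lines, for VWF in Ku (2.66) and for COL1A2 in Cov (42.2), and their part in the results was not tested. The deposited FPKM were scaled by the authors to ERCC spike-in RNAs mixed with RNA from counted cells, so the values follow RNA per cell, although fewer cells recovered and less RNA per cell cannot be told apart from the values alone.

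Most cytoplasmic mRNAs are degraded after their poly(A) tail is shortened. PAN2-PAN3 and then the larger CCR4-NOT complex remove the tail, after which the message is either decapped by DCP2, with the LSM1-7 ring and the EDC enhancers helping, and digested from its 5′ end by XRN1, or digested from its 3′ end by the exosome. The exosome has a ring-shaped core without catalytic activity of its own in human cells, to which the nucleases DIS3 and EXOSC10 bind. XRN2 acts in the nucleus and takes part in transcription termination, and the UPF and SMG proteins mark messages with premature stop codons for degradation.

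The stretch of 150 bases just before the annotated transcript start is shown for 4 members. These had the largest and the smallest mean fall at 250 nM among 7 members considered for display. The stretch of each of the 7 overlaps no annotated exon, and other members without such overlap may have been left out. EXOSC3 and CNOT6 had the largest mean falls among the 7, and EDC4 and LSM3 the smallest. The sequences were read from GRCh37 at the starts of the canonical GENCODE transcripts, 5′ to 3′ on the strand of the gene, at chr9:37785062-37785211 (minus strand) for EXOSC3, chr5:179921229-179921378 (plus strand) for CNOT6, chr16:67906805-67906954 (plus strand) for EDC4 and chr3:14220167-14220316 (plus strand) for LSM3. Capitals mark a GC box (GGGCGG) or a CCAAT box (CCAAT), searched on both strands.
EXOSC3: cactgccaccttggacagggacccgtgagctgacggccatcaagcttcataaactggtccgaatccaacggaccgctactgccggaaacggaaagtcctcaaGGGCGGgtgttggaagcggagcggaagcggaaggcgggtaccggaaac
CNOT6: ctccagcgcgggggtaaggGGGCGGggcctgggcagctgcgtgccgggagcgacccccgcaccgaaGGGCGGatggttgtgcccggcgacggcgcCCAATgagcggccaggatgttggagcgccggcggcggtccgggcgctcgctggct
EDC4: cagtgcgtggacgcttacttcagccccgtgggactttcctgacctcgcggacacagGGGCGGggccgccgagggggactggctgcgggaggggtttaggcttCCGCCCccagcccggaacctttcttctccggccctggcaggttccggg
LSM3: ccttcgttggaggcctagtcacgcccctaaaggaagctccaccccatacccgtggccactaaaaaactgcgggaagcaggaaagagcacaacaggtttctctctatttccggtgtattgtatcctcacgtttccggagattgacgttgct
A GC box lay in this window in 29 of the 42 members (69%), against 65% of the 12014 active coding genes searched in the same way, and a CCAAT box lay in 16 members (38.1%), against 27.1%. The E-box CACGTG was found before XRN2, LSM1, EXOSC1 and EXOSC5, which is 9.52% of the members against 6.74% of the active coding genes. A TATA box (TATAAA) was found before 0 of the 42 members and before 3.25% of the active coding genes. GC content over the window had a median of 67% in the members and 69.3% in the active coding genes, and the window of EXOSC3 held 1 GC box, those of CNOT6 and EDC4 held 2 each and that of LSM3 held 0. The window of CNOT6 also held 1 CCAAT box. These letter matches describe the windows and are no evidence of binding.

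The first question was how the decay genes responded to each dose in Ku cells. At 250 nM all 42 members had both treated libraries below both DMSO libraries, as did 95.9% of the active genes, and 39 members fell past the threshold (limma, adjusted p under 0.001 and a change of over 0.5 on the log2 scale). Of the active genes 68.6% did so. When genes had to exceed 10 FPKM in at least 1 library, 82.5% of the 9384 genes tested did so, with a median log2 fold change of -1.29. No member had a fold change above 0, and 0.0491% of the active genes were called higher. The members kept between 3.12% and 68.3% of their DMSO level, with a median of 30.3%, and the median over the active genes was 36.3%. On the scale of log2(FPKM + 1), which understates the change of low genes, their median was -1.59, and it lay between -1.70 and -1.44 over the 4 pairings of a treated with a DMSO library, beside -1.11 for the active genes. Leaving out each library in turn left between 27 and 38 members called, and between 42.7% and 63.5% of the active genes. The members left uncalled at 250 nM were PAN2, XRN2 and LSM3. All directions are on the spike-in scale. After scaling to the typical gene of each library, 12 members in Ku and 14 in Cov had positive values at 250 nM. Those positive in both lines were PAN2, XRN2, EDC4, LSM3, LSM4, LSM5, LSM7, EXOSC1, EXOSC5, EXOSC7 and UPF3B, with EXOSC8 in Ku and CNOT3, LSM2 and LSM6 in Cov beside them.

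At 50 nM the response of Ku cells was smaller. Both treated libraries lay below both DMSO libraries for 38 members (75.8% of the active genes), and the median level kept was 61.4% (70.0% in the active genes). Called lower were 6 members, against 11.3% of the active genes and 15.5% of the genes tested with a minimum of 10 FPKM. Those 6 were DCP1B, EXOSC3, EXOSC4, EXOSC2, CNOT3 and CNOT11, and the calls needed all libraries. Without any 1 of the 6 Ku libraries (DMSO, 50 nM or 250 nM, replicate 1 or 2) 0 members passed the 0.001 threshold, and between 0.0421% and 0.919% of the active genes did. With all 6 libraries 27 members passed at an adjusted p under 0.05 (limma), beside 40.2% of the active genes. Between 50 nM and 250 nM 25 members fell further (36% of the active genes, and 0.0421% rose). That count was 3 without the first 50 nM library, 5 without the second, 3 without the first 250 nM library and 4 without the second, and in those fits 5.89%, 11.2%, 5.55% and 7.17% of the active genes were called lower. In 37 of the 42 members both DMSO libraries exceeded both 50 nM libraries and these exceeded both 250 nM libraries (66.7% of the active genes), and the exceptions were CNOT8, PAN2, XRN2, EDC4 and LSM3.

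In Cov cells the fall was already broad at 50 nM. Both 50 nM libraries lay below both DMSO libraries for all 42 members (95.7% of the active genes), the members kept 11.9% to 73.4% with a median of 44.6% (49.1% in the active genes), and 37 members were called lower, against 70.5% of the active genes (and 0 higher, against 0.0772%). Without the second DMSO library 19 members were called, and 30.3% of the active genes. The members not called at 50 nM were DCP2, LSM3, LSM7, LSM1 and EXOSC5. At 250 nM all 42 members fell (84% of the active genes), and leaving out each library in turn gave between 39 and 42, and between 73.3% and 86.6% of the active genes. Both 250 nM libraries lay below both DMSO libraries for all of them, as for 95.6% of the active genes. The level kept ran from 3.95% to 60.2% with a median of 24.9% (33.0% in the active genes), and the median log2 fold change was -1.88 beside -1.31. With a minimum of 10 FPKM, 94% of the genes tested were called lower at 250 nM in Cov, with a median of -1.50. From 50 nM to 250 nM 21 members fell further (24.4% of the active genes). That count was 11 without the first DMSO library, 11 without the second, 11 without the second 50 nM library, and 8 without either 250 nM library, beside 10.7% to 18.7% of the active genes in those fits. All members but PAN2 were ordered by dose library by library, 41 of 42, as were 73.8% of the active genes.

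**Figure D1:**
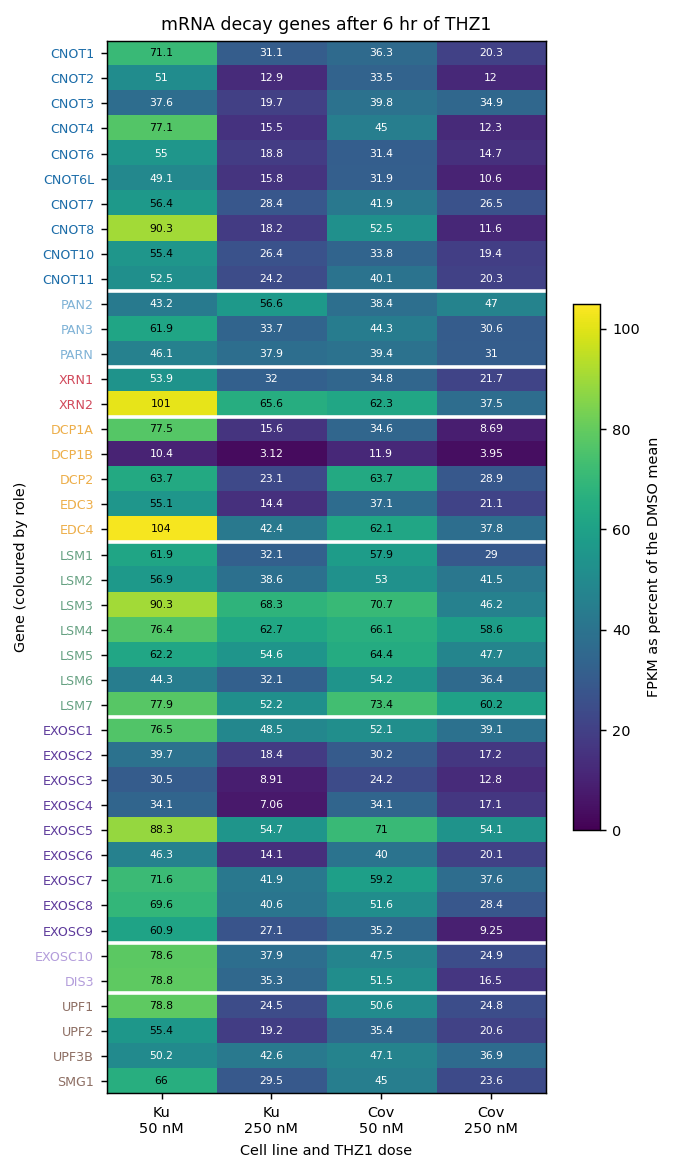
Level of each of the 42 genes (rows, from top to bottom CCR4-NOT, other deadenylases, 5′-3′ exonucleases, decapping, LSM ring, exosome core, exosome nucleases and nonsense-mediated decay, separated by white lines) as percent of the mean FPKM of the 2 DMSO libraries, in Ku and Cov cells at 50 nM and 250 nM THZ1; colour and printed value give the mean of 2 libraries. The Ku column at 50 nM is the lightest, DCP1B is the darkest row in all 4 columns, and at 250 nM the LSM rows are lighter than the CCR4-NOT rows in Ku and mostly so in Cov, where CNOT3 (34.9%) is lighter than LSM1 (29.0%).

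CCR4-NOT is the main cytoplasmic deadenylase. All 10 of its members fell at 250 nM in both lines (68.6% and 84% of the active genes), to a median of 19.3% of DMSO in Ku and 17.1% in Cov, with median log2 fold changes of -2.03 and -2.22, and each of the 10 fell by more than the median active gene in both lines. CNOT1, the scaffold of the complex, read 49.8 and 38.6 FPKM under DMSO, 33.2 and 29.7 FPKM at 50 nM and 13.4 and 14.1 FPKM at 250 nM in Ku (log2 fold change -1.61, SE 0.13, adjusted p = 6.39e-05, limma). In Cov its libraries read 36.8 and 41.7 FPKM under DMSO, 13.5 and 15.0 FPKM at 50 nM and 8.16 and 7.75 FPKM at 250 nM (log2 fold change -2.17, SE 0.10, adjusted p = 1.37e-06). The groups did not overlap in either line, and the DMSO libraries of Ku differed from each other by more than the 250 nM libraries did. CNOT2, a structural subunit that forms a module with CNOT3, fell furthest of the 10 in Ku. It went through 28.6 and 25.7 FPKM under DMSO, 14.6 and 13.1 FPKM at 50 nM and 3.27 and 3.75 FPKM at 250 nM (log2 fold change -2.64, SE 0.12, adjusted p = 1.04e-05). In Cov CNOT2 went through 50.0 and 53.9 FPKM under DMSO, 15.7 and 19.2 FPKM at 50 nM and 6.74 and 5.73 FPKM at 250 nM (log2 fold change -2.87, SE 0.13, adjusted p = 1.1e-06). CNOT3 had a larger fall in Ku, to 19.7% of DMSO, than in Cov, where it kept 34.9%. Between the doses its difference in Cov was -0.17 (SE 0.091) on the log2 scale and was not called.

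The catalytic subunits of the complex come in related pairs, CNOT7 with CNOT8 and CNOT6 with CNOT6L. CNOT7 went from 27.1 and 23.998 FPKM under DMSO to 15.1 and 13.7 at 50 nM and 7.30 and 7.23 at 250 nM in Ku (log2 fold change -1.68, SE 0.10, adjusted p = 2.26e-05). CNOT7 in Cov went from 60.8 and 66.5 FPKM to 24.6 and 28.7 and 18.2 and 15.5 FPKM (log2 fold change -1.86, SE 0.12, adjusted p = 3.92e-06). Its paralogue CNOT8 read 53.7 and 47.4 FPKM under DMSO, 48.4 and 42.8 FPKM at 50 nM and 9.55 and 8.81 FPKM at 250 nM in Ku. The 50 nM libraries overlapped the DMSO libraries of Ku for this gene (-0.14 (SE 0.10) at 50 nM, adjusted p = 0.267), and the step from 50 nM to 250 nM was -2.19 (SE 0.10) with an adjusted p of 5.21e-05, the largest such step among the 42 members. In Cov the same gene read 54.4 and 63.0 FPKM under DMSO, 29.0 and 32.7 FPKM at 50 nM and 7.29 and 6.29 FPKM at 250 nM, lower at each dose, and its fall at 250 nM was the largest of the CCR4-NOT genes there on the log2 scale (log2 fold change -2.94, SE 0.12, adjusted p = 9.69e-07). For CNOT7 the libraries were ordered by dose in both lines. CNOT6 read 24.9 and 21.9 FPKM under DMSO, 13.6 and 12.1 FPKM at 50 nM and 4.40 and 4.38 FPKM at 250 nM in Ku (log2 fold change -2.18, SE 0.11, adjusted p = 1.44e-05). In Cov CNOT6 read 44.7 and 51.4 FPKM under DMSO, 13.7 and 16.5 FPKM at 50 nM and 7.57 and 6.60 FPKM at 250 nM (log2 fold change -2.60, SE 0.13, adjusted p = 1.47e-06). CNOT6L was expressed at a low level, 3.34 and 2.69 FPKM in the Ku and 4.92 and 5.53 FPKM in the Cov DMSO libraries, and it kept 15.8% and 10.6% at 250 nM. Its call in Ku was lost without the first DMSO library or either 250 nM library (adjusted p = 0.00135 to 0.00195, limma). CNOT4, the ubiquitin ligase associated with the complex, kept 77.1% in Ku at 50 nM and 15.5% at 250 nM. CNOT10 and CNOT11, which form a module at the N-terminal end of CNOT1, kept 26.4% and 24.2% in Ku and 19.4% and 20.3% in Cov at 250 nM.

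The 3 deadenylases outside CCR4-NOT kept a median of 37.9% in Ku and 31.0% in Cov at 250 nM. PAN2, the catalytic subunit of PAN2-PAN3, was a low-expressed member with 3.80 and 2.95 FPKM under DMSO, 1.52 and 1.40 FPKM at 50 nM and 1.61 and 2.21 FPKM at 250 nM in Ku. Both treated pairs lay below both DMSO libraries, yet neither dose passed the test (log2 fold change -0.82, SE 0.16, adjusted p = 0.00641 at 50 nM; log2 fold change -0.59, SE 0.16, adjusted p = 0.0116 at 250 nM). In Cov it read 11.2 and 11.9 FPKM under DMSO, 4.46 and 4.41 FPKM at 50 nM and 5.21 and 5.66 FPKM at 250 nM and was called lower at both doses (log2 fold change -1.21, SE 0.097, adjusted p = 3.82e-05 at 50 nM; log2 fold change -0.96, SE 0.097, adjusted p = 4.12e-05 at 250 nM). PAN2 was the only 1 of the 42 members whose 250 nM mean exceeded its 50 nM mean, and it did so in both lines, by 0.24 (SE 0.16) in Ku and 0.24 (SE 0.097) in Cov on the log2 scale, differences that were not called (adjusted p = 0.222 and 0.0662, limma). Its partner PAN3 kept 33.7% in Ku and 30.6% in Cov at 250 nM, and its call in Ku was lost without either DMSO library or either 250 nM library (adjusted p = 0.00107 to 0.00318). PARN, a poly(A)-specific ribonuclease that also matures small noncoding RNAs, read 28.1 and 22.6 FPKM under DMSO, 12.6 and 10.8 FPKM at 50 nM and 9.29 and 9.94 FPKM at 250 nM in Ku (log2 fold change -1.31, SE 0.14, adjusted p = 0.000164). In Cov PARN read 24.4 and 26.8 FPKM under DMSO, 8.75 and 11.4 FPKM at 50 nM and 8.19 and 7.70 FPKM at 250 nM (log2 fold change -1.57, SE 0.13, adjusted p = 1.61e-05). The step between the doses was -0.26 (SE 0.14) in Ku and -0.30 (SE 0.13) in Cov for PARN, and neither was called. The call of PARN in Ku at 250 nM was lost without the first 250 nM library (adjusted p = 0.00172) or the second (adjusted p = 0.00132).

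At 250 nM both exonucleases of the 5′-3′ pathway were called lower in Cov, and XRN1 alone was in Ku. With replicate number added to the fit, XRN2 was called in Ku (adjusted p = 9.52e-05, limma) and XRN1 was not (adjusted p = 0.00177). XRN1, the cytoplasmic enzyme, read 7.21 and 5.35 FPKM under DMSO, 3.87 and 2.89 FPKM at 50 nM and 1.80 and 2.22 FPKM at 250 nM in Ku (log2 fold change -1.27, SE 0.19, adjusted p = 0.000957). In Cov XRN1 read 6.72 and 7.58 FPKM under DMSO, 2.28 and 2.69 FPKM at 50 nM and 1.72 and 1.38 FPKM at 250 nM (log2 fold change -1.68, SE 0.12, adjusted p = 7.01e-06). Its groups were separate, but the call in Ku was lost without any 1 of the 6 libraries of either replicate, DMSO, 50 nM or 250 nM (adjusted p = 0.00131 to 0.00784, limma). XRN2, the nuclear enzyme, read 64.5 and 57.1 FPKM under DMSO, 65.7 and 57.3 FPKM at 50 nM and 41.9 and 37.8 FPKM at 250 nM in Ku. At 50 nM those libraries interleaved with DMSO (0.02 (SE 0.10), adjusted p = 0.91), and at 250 nM both were lower without reaching the threshold (log2 fold change -0.60, SE 0.10, adjusted p = 0.00171). In Cov XRN2 read 59.8 and 69.7 FPKM under DMSO, 37.9 and 42.7 FPKM at 50 nM and 25.1 and 23.5 FPKM at 250 nM and fell at both doses (log2 fold change -1.38, SE 0.11, adjusted p = 1.09e-05 at 250 nM).

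Decapping genes held the member with the deepest fall in relative terms. DCP1B, a cofactor of the decapping enzyme, read 8.27 and 6.54 FPKM under DMSO, 0.973 and 0.566 FPKM at 50 nM and 0.214 and 0.248 FPKM at 250 nM in Ku (log2 fold change -2.76, SE 0.16, adjusted p = 1.83e-05). In Cov DCP1B read 9.85 and 10.3 FPKM under DMSO, 1.13 and 1.27 FPKM at 50 nM and 0.400 and 0.397 FPKM at 250 nM (log2 fold change -2.99, SE 0.089, adjusted p = 8.16e-07). It kept 3.12% and 3.95% of DMSO at 250 nM and 10.4% and 11.9% at 50 nM, so the larger part of its fall lay between DMSO and 50 nM. Its paralogue DCP1A read 8.22 and 6.53 FPKM under DMSO, 6.40 and 5.03 FPKM at 50 nM and 1.07 and 1.23 FPKM at 250 nM in Ku (log2 fold change -1.96, SE 0.17, adjusted p = 7.78e-05). In Cov DCP1A read 12.6 and 13.7 FPKM under DMSO, 4.32 and 4.80 FPKM at 50 nM and 1.21 and 1.08 FPKM at 250 nM (log2 fold change -2.72, SE 0.10, adjusted p = 9.3e-07). It kept 77.5% in Ku and 34.6% in Cov at 50 nM, and in Ku the 50 nM difference was not called whereas the step from 50 nM to 250 nM was. DCP2, the catalytic subunit that removes the cap, read 8.83 and 7.49 FPKM under DMSO, 5.81 and 4.58 FPKM at 50 nM and 1.74 and 2.03 FPKM at 250 nM in Ku (log2 fold change -1.66, SE 0.16, adjusted p = 0.000121). In Cov DCP2 read 5.00 and 4.90 FPKM under DMSO, 2.79 and 3.51 FPKM at 50 nM and 1.5001 and 1.36 FPKM at 250 nM (log2 fold change -1.29, SE 0.11, adjusted p = 1.94e-05). The call of DCP2 in Ku was lost without the first 250 nM library (adjusted p = 0.00142) or the second (adjusted p = 0.00103). EDC4, the large scaffold of decapping bodies, overlapped DMSO at 50 nM in Ku, with 20.5 and 18.4 FPKM under DMSO, 20.0 and 20.4 FPKM at 50 nM and 8.23 and 8.29 FPKM at 250 nM (0.05 (SE 0.091) at 50 nM, adjusted p = 0.66; log2 fold change -1.14, SE 0.091, adjusted p = 5.52e-05 at 250 nM). In Cov EDC4 read 34.4 and 38.1 FPKM under DMSO, 22.2 and 22.8 FPKM at 50 nM and 12.5 and 15.0 FPKM at 250 nM and was called at both doses (log2 fold change -1.34, SE 0.11, adjusted p = 1.33e-05 at 250 nM). EDC3, another enhancer of decapping, kept 14.4% in Ku and 21.1% in Cov at 250 nM.

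**Figure D2:**
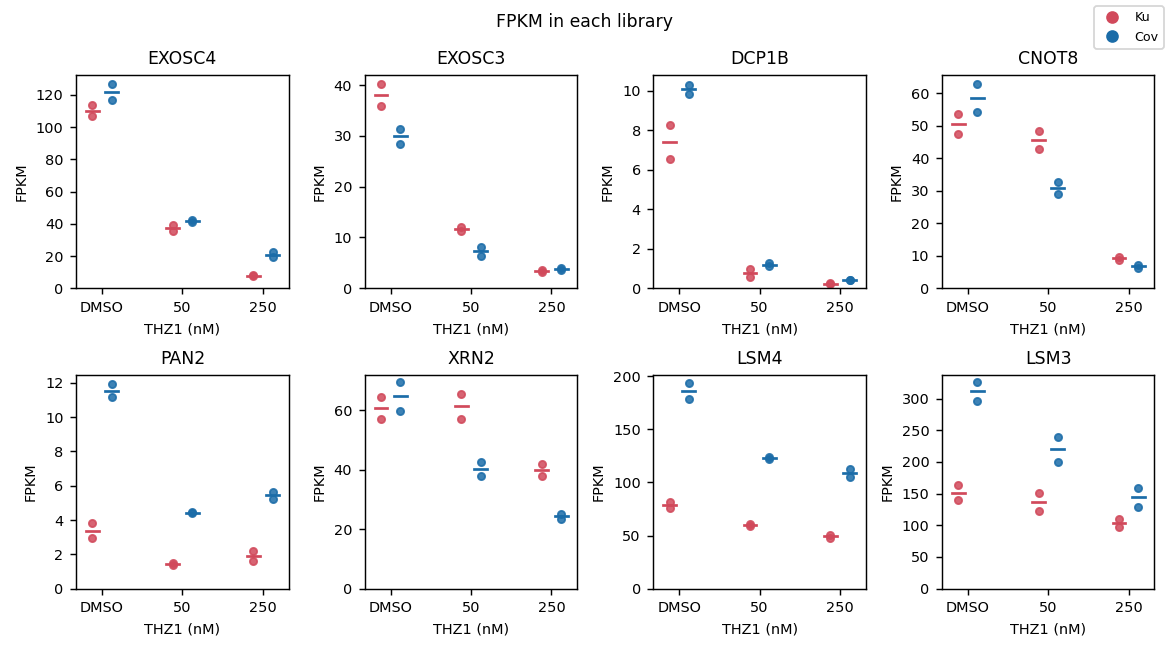
FPKM (linear axis from 0, spike-in scaled) of 8 members in each library, by THZ1 dose in nM; points are single libraries, short bars the mean of 2, Ku in red and Cov in blue. EXOSC4, EXOSC3 and DCP1B drop mostly by 50 nM, CNOT8 in Ku drops only at 250 nM, PAN2 is higher at 250 nM than at 50 nM in both lines, and XRN2, LSM4 and LSM3 keep 62.7% to 68.3% of their DMSO level at 250 nM in Ku and 37.5% to 58.6% in Cov.

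The LSM ring, whose LSM1-7 form binds the 3′ end of deadenylated messages and stimulates decapping, had the smallest median fall of the 8 roles at 250 nM in both lines, in Ku with a median of -0.928 beside -0.9305 for the 5′-3′ exonucleases. LSM2 to LSM7 are shared with a nuclear ring that carries U6 RNA, and LSM1 is the subunit found only in the cytoplasmic form. At 250 nM the 7 members kept a median of 52.2% in Ku and 46.2% in Cov, 6 and 7 of them were called lower (68.6% and 84% of the active genes), and 3 and 2 of them fell by more than the median active gene. LSM1 read 51.5 and 42.6 FPKM under DMSO, 31.1 and 27.1 FPKM at 50 nM and 15.8 and 14.4 FPKM at 250 nM in Ku (log2 fold change -1.57, SE 0.12, adjusted p = 4.85e-05). In Cov LSM1 read 47.4 and 50.1 FPKM under DMSO, 24.5 and 31.9 FPKM at 50 nM and 16.0 and 12.3 FPKM at 250 nM (log2 fold change -1.73, SE 0.16, adjusted p = 2.58e-05), and it had the largest log2 fall of the ring in both lines. The doses were cleanly separated for LSM1, with no overlap between any groups. LSM4 read 81.1 and 76.3 FPKM under DMSO, 59.4 and 60.8 FPKM at 50 nM and 50.7 and 48.0 FPKM at 250 nM in Ku (log2 fold change -0.66, SE 0.065, adjusted p = 0.000125). In Cov LSM4 read 179 and 194 FPKM under DMSO, 122 and 124 FPKM at 50 nM and 105 and 113 FPKM at 250 nM (log2 fold change -0.77, SE 0.084, adjusted p = 6.4e-05). LSM3, the most abundant member per length in both lines, read 163 and 139.6 FPKM under DMSO, 151 and 123 FPKM at 50 nM and 109.6 and 97.4 FPKM at 250 nM in Ku, where the 50 nM libraries overlapped DMSO and the 250 nM difference missed the threshold (log2 fold change -0.54, SE 0.13, adjusted p = 0.007). In Cov LSM3 read 297 and 326 FPKM under DMSO, 200.1 and 240.1 FPKM at 50 nM and 159 and 129 FPKM at 250 nM (log2 fold change -1.11, SE 0.13, adjusted p = 0.000111). For LSM3 in Cov all treated libraries lay below DMSO, and those at 250 nM were the lowest. LSM7 kept 52.2% in Ku (log2 fold change -0.93, SE 0.061, adjusted p = 2.79e-05) and 60.2% in Cov (log2 fold change -0.73, SE 0.12, adjusted p = 0.000603), after DMSO levels of 135 and 139 FPKM and 201 and 228 FPKM. LSM5 kept 54.6% (log2 fold change -0.84, SE 0.11, adjusted p = 0.000419) and 47.7% (log2 fold change -1.04, SE 0.11, adjusted p = 4.41e-05). Several calls of the ring depended on single libraries. In Ku those of LSM4 and LSM5 were lost without either 250 nM library (adjusted p = 0.00111 to 0.00397), that of LSM5 also without either DMSO library, and in Cov that of LSM3 was lost without the second DMSO library (adjusted p = 0.00101) and that of LSM7 without either DMSO library or the first 250 nM library (adjusted p = 0.00126 to 0.00417). LSM2 and LSM6 kept 38.6% and 32.1% in Ku and 41.5% and 36.4% in Cov.

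The exosome core had the widest range of log2 fold changes at 250 nM of any role, although its 9 subunits form 1 complex. At 250 nM all 9 fell in both lines (68.6% and 84% of the active genes), to a median of 27.1% in Ku and 20.1% in Cov, with single subunits from 7.06% to 54.7% in Ku and from 9.25% to 54.1% in Cov. EXOSC4, a subunit of the hexameric ring, read 113 and 107 FPKM under DMSO, 35.6 and 39.5 FPKM at 50 nM and 8.22 and 7.31 FPKM at 250 nM in Ku, the largest log2 fall of the set there (log2 fold change -3.66, SE 0.091, adjusted p = 6.01e-06). In Cov EXOSC4 read 117 and 127 FPKM under DMSO, 40.9 and 42.2 FPKM at 50 nM and 19.1 and 22.5 FPKM at 250 nM (log2 fold change -2.50, SE 0.10, adjusted p = 9.7e-07). EXOSC3, an RNA-binding cap subunit, read 40.2 and 35.8 FPKM under DMSO, 12.03 and 11.2 FPKM at 50 nM and 3.63 and 3.15 FPKM at 250 nM in Ku (log2 fold change -3.15, SE 0.11, adjusted p = 7.34e-06). In Cov EXOSC3 read 28.5 and 31.4 FPKM under DMSO, 6.41 and 8.07 FPKM at 50 nM and 3.67 and 3.99 FPKM at 250 nM (log2 fold change -2.68, SE 0.12, adjusted p = 1.3e-06). Both genes were also past the threshold at 50 nM in both lines, and no libraries of different doses overlapped. EXOSC9, a ring subunit, showed the largest fall of the set in Cov on the scale of log2(FPKM + 1), through 49.5 and 56.1 FPKM under DMSO, 17.1 and 20.0 FPKM at 50 nM and 4.93 and 4.84 FPKM at 250 nM (log2 fold change -3.19, SE 0.11, adjusted p = 8.16e-07). The fall of EXOSC9 in Ku was smaller, through 37.6 and 33.1 FPKM under DMSO, 22.0 and 21.0 FPKM at 50 nM and 9.94 and 9.23 FPKM at 250 nM (log2 fold change -1.78, SE 0.096, adjusted p = 1.61e-05). EXOSC6 read 19.2 and 16.9 FPKM under DMSO, 7.84 and 8.89 FPKM at 50 nM and 2.43 and 2.65 FPKM at 250 nM in Ku (log2 fold change -2.43, SE 0.13, adjusted p = 1.51e-05) and kept 20.1% in Cov. For EXOSC6 and EXOSC9 too, the library values descended with dose without overlap. At the other end, EXOSC5, also a ring subunit, read 87.5 and 79.5 FPKM under DMSO, 69.7 and 77.7 FPKM at 50 nM and 46.7 and 44.6 FPKM at 250 nM in Ku (log2 fold change -0.85, SE 0.082, adjusted p = 0.00012). In Cov EXOSC5 read 30.8 and 33.7 FPKM under DMSO, 23.5 and 22.3 FPKM at 50 nM and 15.4 and 19.5 FPKM at 250 nM (log2 fold change -0.86, SE 0.12, adjusted p = 0.000315). The EXOSC5 call was lost without either 250 nM library in Ku (adjusted p = 0.00104 and 0.0013) and without either DMSO library or the first 250 nM library in Cov (adjusted p = 0.00103 to 0.00328). That of EXOSC1 in Ku was lost without the first DMSO library or either 250 nM library (adjusted p = 0.0015 to 0.00274). The cap subunit EXOSC2 kept 18.4% in Ku and 17.2% in Cov, the cap subunit EXOSC1 kept 48.5% and 39.1%, and the ring subunits EXOSC7 and EXOSC8 kept 41.9% and 40.6% in Ku and 37.6% and 28.4% in Cov.

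The nucleases that work with this core fell in both lines. EXOSC10, the nuclear 3′-5′ exonuclease, read 106 and 90.0 FPKM under DMSO, 81.4 and 72.3 FPKM at 50 nM and 35.8 and 38.3 FPKM at 250 nM in Ku (log2 fold change -1.37, SE 0.10, adjusted p = 4.27e-05). In Cov EXOSC10 read 89.9 and 99.9 FPKM under DMSO, 44.4 and 45.7 FPKM at 50 nM and 24.5 and 22.8 FPKM at 250 nM (log2 fold change -1.96, SE 0.089, adjusted p = 1.2e-06). DIS3, the processive nuclease of the complex, read 20.9 and 16.6 FPKM under DMSO, 15.8 and 13.8 FPKM at 50 nM and 6.95 and 6.30 FPKM at 250 nM in Ku (log2 fold change -1.37, SE 0.14, adjusted p = 0.000163). In Cov DIS3 read 12.8 and 13.5 FPKM under DMSO, 6.55 and 6.99 FPKM at 50 nM and 2.19 and 2.14 FPKM at 250 nM (log2 fold change -2.16, SE 0.095, adjusted p = 1.13e-06). For both genes the 3 groups of libraries were separate in each line, and at 50 nM neither was called in Ku and both were called in Cov. The call of DIS3 at 250 nM in Ku was lost without the first 250 nM library (adjusted p = 0.00123) or the second (adjusted p = 0.00163).

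Nonsense-mediated decay was represented by 4 genes, all of which fell at 250 nM in both lines (68.6% and 84% of the active genes), to medians of 27.0% in Ku and 24.2% in Cov. UPF1, the RNA helicase at the centre of the pathway, read 44.04 and 41.7 FPKM under DMSO, 34.1 and 33.5 FPKM at 50 nM and 10.2 and 10.8 FPKM at 250 nM in Ku (log2 fold change -1.93, SE 0.074, adjusted p = 7.96e-06). In Cov UPF1 read 70.2 and 76.4 FPKM under DMSO, 38.1 and 36.1 FPKM at 50 nM and 16.6 and 19.8 FPKM at 250 nM (log2 fold change -1.96, SE 0.11, adjusted p = 2.09e-06). SMG1, the kinase that phosphorylates UPF1, read 21.7 and 16.9 FPKM under DMSO, 13.8 and 11.7 FPKM at 50 nM and 4.97 and 6.44 FPKM at 250 nM in Ku (log2 fold change -1.60, SE 0.18, adjusted p = 0.000215). In Cov SMG1 read 23.2 and 26.2 FPKM under DMSO, 10.3 and 11.997 FPKM at 50 nM and 6.03 and 5.63 FPKM at 250 nM (log2 fold change -1.91, SE 0.11, adjusted p = 3.08e-06). SMG1 has near-identical pseudogene copies on the same chromosome, so its FPKM may hold reads of other copies, and its call in Ku was lost without the first DMSO library (adjusted p = 0.00136) or the first 250 nM library (adjusted p = 0.00155). UPF2, which bridges UPF1 and UPF3B, kept 19.2% and 20.6%, and UPF3B, its partner that contacts the exon junction complex, kept 42.6% and 36.9% with little difference between the doses (-0.21 (SE 0.15) in Ku and -0.33 (SE 0.11) in Cov, neither called). The UPF3B call in Ku at 250 nM was lost without the first DMSO library or either 250 nM library (adjusted p = 0.0021 to 0.00453).

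**Figure D3:**
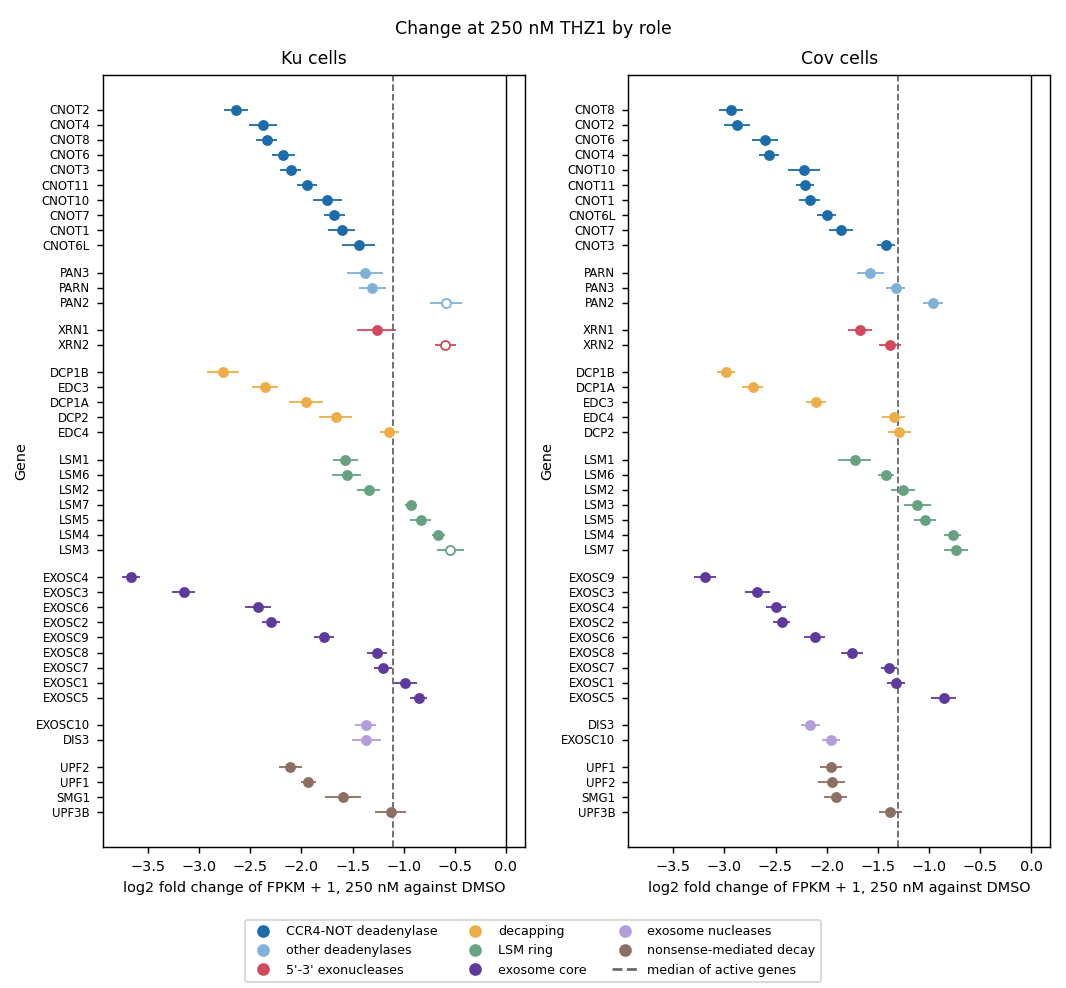
Log2 fold change of FPKM + 1 at 250 nM THZ1 against DMSO for the 42 genes, by role, in Ku (left) and Cov (right); bars are the SE from limma (3 groups of 2 libraries a line), open circles were not called, and the dashed line is the median of the active genes. CCR4-NOT lies wholly left of the dashed line in both lines, the exosome core spans the axis, and most of the LSM ring lies to its right.

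The lines were compared by description only, because their tables were normalized separately. At 250 nM 39 members were called lower in both lines (64.6% of the active genes) and at 50 nM 6 were (10.4%). Across the 42 members the log2 fold changes at 250 nM of the lines had Pearson r = 0.788 and Spearman rho = 0.836, beside 0.672 and 0.712 across the active genes; the genes are not independent replicates. The fall was larger in Cov for 31 members (73.8%) at 250 nM and for 38 (90.5%) at 50 nM, and for 64.6% and 85.6% of the active genes. EXOSC9, DIS3 and DCP1A were members with larger falls in Cov, and EXOSC4 and CNOT3 were members with larger falls in Ku.

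**Figure D4:**
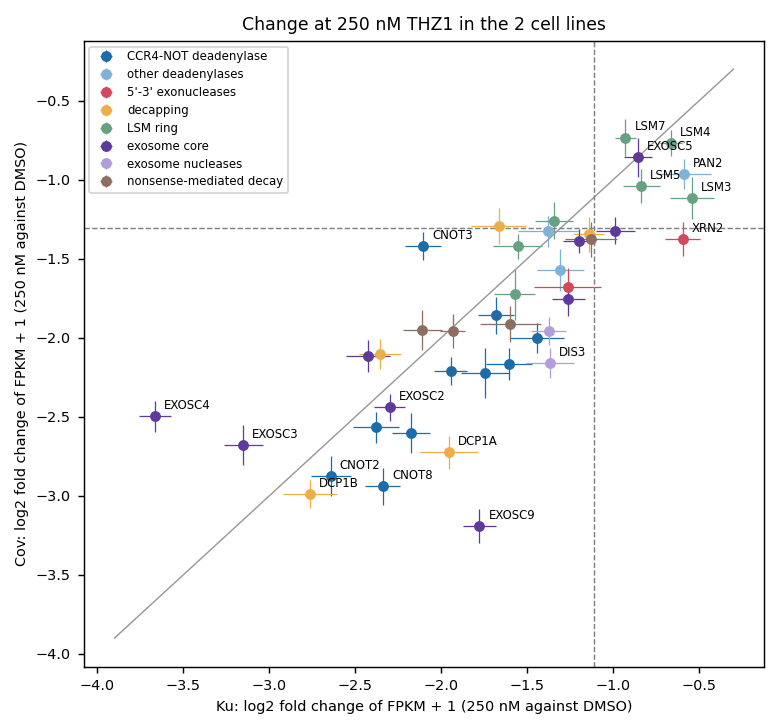
Log2 fold change of FPKM + 1 at 250 nM against DMSO in Ku (x axis) and Cov (y axis) for the 42 genes, with the SE of each as bars, colour by role, the line of equality in grey and the medians of the active genes dashed. The members run along the diagonal with EXOSC4 above it and EXOSC9 below it, and LSM3, LSM4, LSM7, PAN2 and EXOSC5 sit at the upper right.

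Since nearly all expressed genes lost RNA on the spike-in scale, the members were also compared with the other genes of their library. The 42 genes made up 0.144% and 0.129% of the summed FPKM in the Ku DMSO libraries, 0.116% and 0.111% at 50 nM and 0.0972% and 0.103% at 250 nM. In Cov the share went from 0.159% and 0.153% through 0.120% and 0.114% to 0.114% and 0.112%. After median-of-ratios scaling within a line, which sets the typical expressed gene near no change (median of the active genes -0.08 in Ku and -0.02 in Cov at 250 nM), 15 members were lower and 3 higher in Ku (21.7% and 8.54% of the active genes), and 16 were lower and 1 higher in Cov (19.9% and 7.25%). The higher ones were LSM3, LSM4 and XRN2 in Ku and LSM4 in Cov. On that relative scale CCR4-NOT had median log2 fold changes of -0.82 in Ku and -0.88 in Cov and 6 and 7 of its 10 members called lower. The LSM ring had medians of 0.40 and 0.45 and none called lower, so the direction of its median depended on the scale. Of its 7 genes 4 were positive in Ku and 6 in Cov. LSM1 was negative in both lines (-0.28 and -0.21), and LSM2 (-0.024) and LSM6 (-0.29) were negative in Ku. The decapping genes had medians of -0.995 and -0.63, the exosome core -0.51 and -0.68, nonsense-mediated decay -0.52 and -0.45 and the exosome nucleases -0.10 and -0.64. The other deadenylases had medians of -0.048 and -0.10 and the 5′-3′ exonucleases of 0.25 and -0.16, with 0 of either called lower by limma. In Cov at 50 nM 1 member (1.03% of the active genes lower) and in Ku 4 (4.01%) were lower on this scale, and between the doses 9 in Ku (11.7%) and 5 in Cov (7.8%).

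Gene length was set beside the fall as a description. Between the span of the canonical transcript and the log2 fold change at 250 nM Spearman's rho was -0.13 in Ku and -0.23 in Cov across the 42 members, beside 0.036 and -0.077 across 12017 active coding genes, with transcript structures from GENCODE on GRCh37. The LSM genes had a median coding length of 306 bases and a median span of 13155 bases, the exosome core genes had medians of 825 and 10098 bases, and the CCR4-NOT genes had a median span of 86334 bases. Among the members 14 share exonic bases with the canonical transcript of a gene on the opposite strand, namely CNOT1, CNOT3, CNOT7, CNOT10, PAN2, XRN2, DCP2, LSM1, EXOSC4, EXOSC8, EXOSC9 (with CCNA2), EXOSC10, DIS3 (with BORA) and SMG1. With a gene on the same strand 3 share bases, EDC4, EXOSC3 and EXOSC4. The values of these genes are uncertain to that extent, since whether the counting used the strand of the reads is not given in the sources used here.

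Other genes of the pathway were taken from a list of 66, of which 65 were in the tables and active (LSM8 was not analysed here). At 50 nM 5 of the 65 were called lower in Ku and 56 in Cov, and at 250 nM 61 in Ku and 64 in Cov, with medians of -1.62 and -1.70. The shares of the active genes were 11.3% and 70.5% at 50 nM and 68.6% and 84% at 250 nM. At 50 nM fewer were called in Ku without any 1 of its 6 libraries and in Cov without the second DMSO library, as held for the active genes. None was called higher in Ku, and 1, ZFP36, was in Cov at 250 nM. The 23 partners and recruiters of CCR4-NOT had the deepest single falls in Ku, where BTG2, an antiproliferative protein that binds the CNOT7 and CNOT8 nucleases, read 39.9 and 33.3 FPKM under DMSO, 8.63 and 7.80 FPKM at 50 nM and 0.694 and 0.934 FPKM at 250 nM (log2 fold change -4.37, SE 0.14, adjusted p = 6.93e-06). ZFP36L2, which brings the deadenylase to AU-rich elements, followed (log2 fold change -4.19, SE 0.11, adjusted p = 6.52e-06), and PELO, a ribosome rescue factor, came next (log2 fold change -3.69, SE 0.11, adjusted p = 6.52e-06). In Cov the largest falls were those of SMG8, a regulator of the SMG1 kinase (log2 fold change -3.30, SE 0.11, adjusted p = 8.16e-07), BTG1 (log2 fold change -3.13, SE 0.10, adjusted p = 8.16e-07) and TOB2 (log2 fold change -3.02, SE 0.11, adjusted p = 8.25e-07). PABPC1, the cytoplasmic poly(A)-binding protein, had small falls (log2 fold change -0.53, SE 0.076, adjusted p = 0.000749 in Ku; log2 fold change -0.90, SE 0.094, adjusted p = 5.11e-05 in Cov), and small values were also found for the SKI complex genes TTC37 (log2 fold change -0.55, SE 0.15, adjusted p = 0.0134, not called) and WDR61 (log2 fold change -0.68, SE 0.081, adjusted p = 0.000307) in Ku. TNRC6B, a scaffold of microRNA silencing, read 1.53 and 1.73 FPKM under DMSO and 0.555 and 0.549 FPKM at 250 nM in Cov, so it kept 33.8% of its level although its value on the log2(FPKM + 1) scale was small (log2 fold change -0.76, SE 0.079, adjusted p = 4.78e-05). ZFP36, the AU-rich element binding protein tristetraprolin, read 10.5 and 10.95 FPKM under DMSO, 11.5 and 9.35 FPKM at 50 nM and 18.5 and 19.9 FPKM at 250 nM in Cov and rose at 250 nM (log2 fold change 0.78, SE 0.12, adjusted p = 0.000365). In Ku it read 18.9 and 17.1 FPKM under DMSO, 12.5 and 12.6 FPKM at 50 nM and 3.22 and 4.71 FPKM at 250 nM and fell (log2 fold change -1.95, SE 0.16, adjusted p = 6.77e-05).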

How the data were processed

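PolyA RNA of 12 libraries (2 lines, 3 conditions, 2 replicates each) was analysed from 2 deposited tables of FPKM, 1 per line. The authors mixed RNA from counted cells with ERCC RNAs, made stranded single-end libraries, used HISAT for alignment to hg19 and the Cufflinks programs cuffquant and cuffnorm for FPKM, and scaled the deposited FPKM to the ERCC RNAs. Tool versions, the annotation and the strand setting of the counting are not given in the sources used here. Read depth is unknown from FPKM, so no counting interval was given. The study's count test was replaced, since the tables hold no counts.

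Genes above 1 FPKM in at least 1 library were kept, ERCC rows left out, and log2(FPKM + 1) was fitted per line over its 6 libraries with limma 3.58.1 (lmFit, eBayes with a mean-variance trend, R 4.3.3), two-sided, with Benjamini-Hochberg adjustment over 14251 genes. Calls needed an adjusted p below 0.001 together with a change of more than 0.5 on the log2 scale. The script was tested on simulated data. The members and lists were chosen with earlier results of these data known. Full statistics were given to the 5 members with the largest and the 5 with the smallest fall per line at 250 nM and to key members of each role, and for the other pathway genes to the 3 with the largest and the 3 with the smallest change per line and any called higher; CNOT3, CNOT4 and the other members outside this rule are given by levels. Alternatives were a pseudocount of 0.1, a minimum of 10 FPKM, no minimum, median-of-ratios scaling, a replicate block, no mean-variance trend, an adjusted p under 0.05, and each library left out. Promoter windows were read from GRCh37 with GENCODE transcript starts; gene symbols were matched exactly, 18858 matched and 4853 did not. Figures were drawn with matplotlib 3.10.9 under Python 3.11.15.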

Additional observations from a re-analysis of the deposited data

Results flagged for a closer look

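For 4 of the other pathway genes both libraries of 1 dose lay on opposite sides of both DMSO libraries in the 2 lines, and the difference between lines was not tested. ZFP36 read 18.9 and 17.1 FPKM under DMSO and 3.22 and 4.71 FPKM at 250 nM in Ku, a log2 fold change of -1.95, whereas in Cov it read 10.5 and 10.95 FPKM and then 18.5 and 19.9 FPKM, a log2 fold change of 0.78.

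At 250 nM this was the case for ZFP36, 1 of 65 (1.54%), beside 0.414% of the active genes, and at 50 nM for 3 of 65 (4.62%), beside 2.79%. It was the case for 0 of the 42 members at either dose. The other 3 concerned 50 nM and none of these values passed the test in either line. CCRN4L, the circadian deadenylase-like protein nocturnin, read 9.73 and 9.25 FPKM under DMSO and 17.1 and 15.4 FPKM at 50 nM in Ku, a log2 fold change of 0.72. In Cov CCRN4L read 12.9 and 13.3 FPKM under DMSO and 9.002 and 10.9 FPKM at 50 nM, a log2 fold change of -0.37. At 250 nM the same gene was below DMSO in both lines, at 1.52 and 1.53 FPKM in Ku and 3.42 and 3.24 FPKM in Cov. TNRC6B had a log2 fold change of 0.59 in Ku, from 4.01 and 3.13 FPKM to 6.04 and 5.64 FPKM, and of -0.22 in Cov, from 1.53 and 1.73 FPKM to 1.32 and 1.22 FPKM. TOB1, an antiproliferative protein that binds CCR4-NOT, had a log2 fold change of 0.27 in Ku, from 17.0 and 17.1 FPKM to 22.2 and 19.5 FPKM, and of -0.33 in Cov, from 60.8 and 69.0 FPKM to 51.0 and 51.4 FPKM.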

How the results depend on the processing

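Under median-of-ratios scaling the members called lower were 15 at 250 nM in Ku with 3 higher and 16 in Cov with 1 higher, 1 at 50 nM in Cov, and 9 in Ku and 5 in Cov between the doses. The other pathway genes called lower on that scale were 2 and 0 at 50 nM, 29 and 25 at 250 nM, and 22 and 15 between the doses, in Ku and Cov respectively, beside 4.01% and 1.03%, 21.7% and 19.9%, and 11.7% and 7.8% of the active genes. On that scale 16 members of each line (38.1%) were in the strict dose order, beside 19.1% of the active genes in Ku and 20.2% in Cov. The members' median log2 fold changes on that scale were -0.22 and -0.15 at 50 nM, -0.35 and -0.43 at 250 nM, and -0.21 and -0.21 between the doses. On that scale 12 members in Ku and 14 in Cov turned positive at 250 nM. Among those given full statistics these were in Ku PAN2 0.37, XRN2 0.72, EDC4 0.10, LSM3 0.79, LSM4 0.66, LSM5 0.45, LSM7 0.40 and EXOSC5 0.47, and in Cov PAN2 0.43, XRN2 0.16, EDC4 0.16, LSM3 0.45, LSM4 0.80, LSM5 0.49, LSM7 0.83 and EXOSC5 0.65. The others were EXOSC1 (0.29 and 0.21), EXOSC7 (0.087 and 0.16) and UPF3B (0.11 and 0.13) in Ku and Cov, EXOSC8 in Ku (0.037), and CNOT3 (0.051), LSM2 (0.30) and LSM6 (0.11) in Cov.

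Without a minimum FPKM 0 members and 0 other pathway genes were called at 50 nM in Ku, 11 and 14 between the doses in Ku, and 13 members between the doses in Cov, where more genes were tested and 0.0127%, 8.05% and 9% of them were called lower. At 250 nM that setting ended the calls of CNOT6L, LSM5, PAN3, UPF3B and XRN1 in Ku and of LSM7 in Cov (adjusted p = 0.00113 to 0.00343, limma), and the fit without a mean-variance trend ended that of XRN1 in Ku (0.00113). At an adjusted p under 0.05, 27 members and 29 other pathway genes were called at 50 nM in Ku. With a pseudocount of 0.1 the members' median was -1.07 between the doses in Ku and -2.0 at 250 nM in Cov. With a minimum of 10 FPKM the shares of all genes tested that were called lower were larger than among the active genes. They were 15.5% at 50 nM, 82.5% at 250 nM and 54.5% between the doses in Ku. In Cov they were 80.3%, 94% and 36.2%. Leaving out 1 library at a time gave 0 to 0 members and 0 to 0 other pathway genes at 50 nM in Ku, 3 to 22 and 12 to 40 between the doses in Ku, 19 to 36 and 24 to 55 at 50 nM in Cov, 8 to 23 and 18 to 30 between the doses in Cov, and a members' median of -1.74 to -1.43 at 250 nM in Ku. The shares of active genes called lower in those fits were 0.0421% to 0.919% at 50 nM and 5.55% to 32.3% between the doses in Ku, and 30.3% to 69.7% and 10.7% to 27.9% in Cov. The cause was not tested.

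Deviations of same-numbered libraries had correlations across genes of -0.0087 to 0.00034 in Ku and -0.0703 to 0.0282 in Cov. A correlation leaves out any shift common to all genes, so it cannot decide whether replicate numbers pair the libraries. In Ku the active genes' median of replicate 2 minus replicate 1 was -0.162 for the DMSO libraries, -0.101 for the lower dose and 0.013 for the higher. The same medians in Cov were 0.115, 0.098 and -0.0058. With the replicate block 5 members and 14 other pathway genes were called between the doses in Cov, with 7.93% of the active genes. The other counts of members and of other pathway genes moved by at most 1.5 times. Of the active genes 6.94% were called lower at 50 nM in Ku with the block, beside 11.3% without it. At 250 nM the block added calls for XRN2 (adjusted p = 9.52e-05, limma) and LSM3 (0.000126) in Ku, and it ended those of XRN1 and PAN3 in Ku and of EXOSC5, LSM3 and LSM7 in Cov (adjusted p = 0.00102 to 0.00193). Of the alternative values at 250 nM of the 27 members given full statistics, 622 kept direction and side of the threshold, 55 lost the call, 5 gained it and 16 reversed. The unknown read depth and the duplicates limit what small differences can show.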
